A study of Mus musculus with 6 samples.

Results

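The 69 genes described here encode defensins and further secreted products, many of them known from Paneth cells. They were taken by symbol from the 23420 genes of the expression table. They comprised 17 genes with an alpha-defensin symbol (Defa), 43 with a beta-defensin symbol (Defb) and 9 further products, namely Lyz1, Ang4, Mmp7, Itln1, Pla2g2a, Pnliprp2, Clps, Guca2a and Guca2b. No gene had a Defcr symbol. The RNA came from tuft cells sorted from the distal ileum of C57BL/6J mice carrying Gfi1b-eGFP/+, and 6 libraries formed 1 group. Mice were 6 to 12 wk old, and each library was labelled as a mouse replicate, without a statement on whether animals were pooled. In these mice, green fluorescent protein is made from 1 allele of Gfi1b, a transcription factor gene that marks tuft cells in the intestinal epithelium and that some blood cells also use. The gate took live cells with GFP and EpCam and without CD45. All libraries shared this allele and gate, and no sorted Paneth cells were analysed here. Expression was given as TPM, the abundance of a transcript relative to all transcripts of its library, which is corrected for transcript length, so that levels of different genes can be set side by side.

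Paneth cells sit at the base of the small intestinal crypts beside the stem cells and release granules of antimicrobial proteins into the crypt lumen. Alpha-defensins, called cryptdins in the mouse, are made as inactive precursors, and in mice the metalloproteinase Mmp7 cuts them into the active peptides, in which 6 cysteines form disulfide bonds. The same granules hold lysozyme (Lyz1), which cleaves bacterial cell walls, and the ribonuclease family protein Ang4. Tuft cells, by contrast, are chemosensory cells of the epithelium, and the products described here are not known as tuft cell markers.

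The 6 genes that led every library among those with a Defa symbol are shown by the coding sequence of the cysteine-bearing part of the mature peptide, because the results turn on how alike they are. Each run goes from the first of the last 6 cysteine codons of the reference transcript (GENCODE M21) to the stop codon, 5′ to 3′, with the cysteine codons in capitals.
Defa24: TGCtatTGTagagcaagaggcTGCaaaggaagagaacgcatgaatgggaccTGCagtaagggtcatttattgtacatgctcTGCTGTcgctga
Defa20: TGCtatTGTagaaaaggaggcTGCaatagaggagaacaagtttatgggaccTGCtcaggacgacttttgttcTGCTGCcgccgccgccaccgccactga
Defa21: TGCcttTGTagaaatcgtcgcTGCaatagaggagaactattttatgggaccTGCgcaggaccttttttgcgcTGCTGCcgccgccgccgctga
Defa22: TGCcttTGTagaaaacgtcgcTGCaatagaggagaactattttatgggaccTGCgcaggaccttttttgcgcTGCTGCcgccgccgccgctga
Defa17: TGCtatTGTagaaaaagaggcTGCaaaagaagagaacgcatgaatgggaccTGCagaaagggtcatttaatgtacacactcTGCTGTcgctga
Defa23: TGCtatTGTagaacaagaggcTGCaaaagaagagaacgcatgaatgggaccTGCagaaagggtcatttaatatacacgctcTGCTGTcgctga
The spacing of the cysteine codons was shared up to the fourth, and the stretch between the fourth and the fifth was longer in Defa24, Defa17 and Defa23. Defa24, Defa17 and Defa23 ended in a single arginine codon after the last cysteine, whereas Defa20, Defa21 and Defa22 ended in a run of basic codons.

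The markers of the sorted cell type were present in every library. Dclk1, a tuft cell kinase, was at 511.06 to 820.61 TPM, Trpm5, the cation channel of taste signaling, at 839.13 to 1403 TPM, and all 12 tuft cell genes of the list that were in the table were above 0. Goblet cell genes summed to 1053 to 5118 TPM and enterocyte genes to 5912 to 15096 TPM per library. Fabp1, the most abundant gene of the enterocyte list, was at 4226 to 12794 TPM. The ribosomal RNA precursor Rn45s took 23.1% to 32.6% of TPM. Gm20594, a second abundant transcript, took 1.56% to 2.13% in replicates 1 to 3 and 5.18% to 5.64% in replicates 4 to 6, which were therefore treated as 2 sets below. Read numbers cannot be had from TPM. The depth of the libraries is unknown, and neither counting intervals nor detection limits could be given.

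Alpha-defensin transcripts were abundant in the sorted cells. Their genes held 1.07%, 0.564%, 0.706%, 4.47%, 2.70% and 1.37% of all TPM in replicates 1 to 6, on average 1.81% ± 1.51 (SD, n = 6). Replicate 4 was highest and replicate 2 lowest, and they differed 7.91-fold. In these bulk samples, fewer cells holding the transcripts and less of their RNA per cell cannot be told apart. Whether the transcripts came from tuft cells or from other cells or free RNA in the sort was not tested. Of the 17 genes, 14 were above 0 in at least 1 library. A mean of at least 100 TPM was reached by 10 of the 17, against 1054 of all 23420 genes. Defa25 and the pseudogenes Defa-ps12 and Defa-ps13 were listed at 0 in every library, as were 7713 of all 23420 genes.

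Defa24 was the most abundant, at 3026, 1872, 2160, 12424, 7361 and 4038 TPM in replicates 1 to 6 (mean 5147 ± 4080, SD, n = 6). Defa20 followed at 2177, 1251, 1402, 9358, 5734 and 2651 TPM (mean 3762 ± 3188). Both were highest in replicates 4 and 5, and Defa24 exceeded Defa20 in every library by 1.28 to 1.54 times. Defa21 was at 1003, 589.25, 871.17, 6109, 3114 and 1502 TPM, and its near copy Defa22 at 1211, 529.74, 640.55, 5567, 3112 and 1465 TPM. Which of this pair was higher changed between libraries, with Defa21 at 0.828 to 1.36 times Defa22. Defa17 was at 1392, 547.43, 723.93, 3811, 2534 and 1712 TPM, and Defa23 at 1063, 439.86, 495.85, 3105, 2421 and 992.57 TPM. The 6 paralogs shared replicate 4 as their highest library and replicate 2 as their lowest.

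The paralogs next in order were less abundant. Defa5 was at 393.01, 193.43, 359.15, 1834, 1230 and 504.34 TPM in replicates 1 to 6. Defa-rs7, which RefSeq names Defa31, was at 107.61, 55.44, 132.83, 936.35, 333.55 and 286.65 TPM, with replicate 4 far above the rest. Defa3 was at 112.84, 49.56, 109.27, 749.75, 447.82 and 210.22 TPM. Below 100 TPM on average were Defa26 (9.65 to 163.51 TPM), the transcribed pseudogene Defa-ps1 (0.82 to 54.64 TPM), Defa6 (6.56 to 61.93 TPM) and Defa4. Defa4 ranged from 0 in replicates 3 and 6 to 41.18 TPM in replicate 4. Defa4 and Defa6 were not matched to the gene annotation used here. How far their reads are shared with other paralogs was not examined, so their levels may not be their own. Several means rested on replicate 4: without it, Defa21 fell from 2198 to 1416 TPM, Defa22 from 2087 to 1392, Defa-rs7 from 308.74 to 183.22, Defa3 from 279.91 to 185.94, Defa6 from 22.823 to 15.002 and Defa4 from 13.2 to 7.56.

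**Figure D1:**
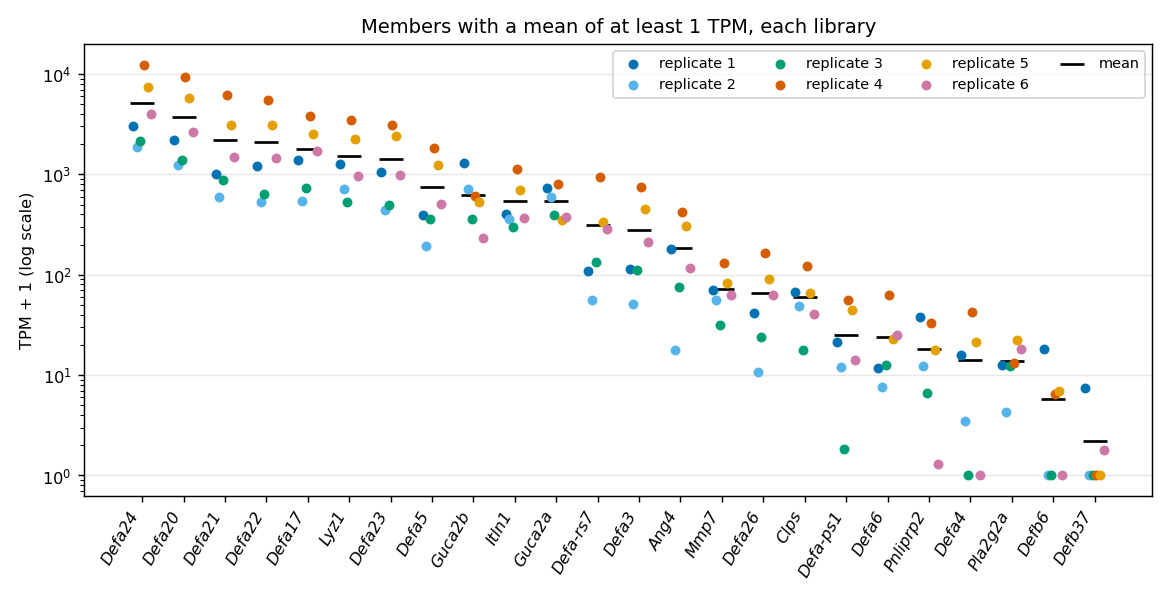
TPM + 1 on a log axis of 24 of the 25 members with a mean of at least 1 TPM, in order of the mean. Each colored point is 1 of the 6 libraries and the black bar is their mean. The alpha-defensins and Lyz1 are highest in replicates 4 and 5 for most genes, whereas Guca2b is highest in replicate 1.

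The shares of the leading paralogs in the alpha-defensin pool differed less between libraries than the size of the pool. Shares of minor paralogs varied more, for Defa-ps1 from 0.0116% to 0.195%. Defa24 held 29.4% ± 2.18 (SD, n = 6) of the alpha-defensin TPM, between 27.3% and 33.2%, and Defa20 held 20.7% ± 1.02, between 19.4% and 22.2%. They were first and second in 6 of 6 libraries. Defa21 held 11.4% ± 1.5, Defa22 10.7% ± 1.31, Defa17 10.6% ± 1.80 and Defa23 7.99% ± 1.22, and these 6 filled the leading places among genes with a Defa symbol in 6 of 6 libraries. The order of the last 4 varied: behind Defa20 came Defa17 in replicates 1 and 6 and Defa21 in the other 4. The shares of Defa21, Defa22 and Defa17 overlapped over the libraries. Together the 6 held 90.8% ± 1.40, whereas the pool itself differed 7.91-fold between libraries. Over the 15 pairs of libraries, Spearman correlations of paralog TPM were 0.943 to 0.996, a correlation across genes, which are not independent replicates. Between libraries in general, Spearman correlations were 0.915 to 0.937, so high values are not particular to the paralogs.

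**Figure D2:**
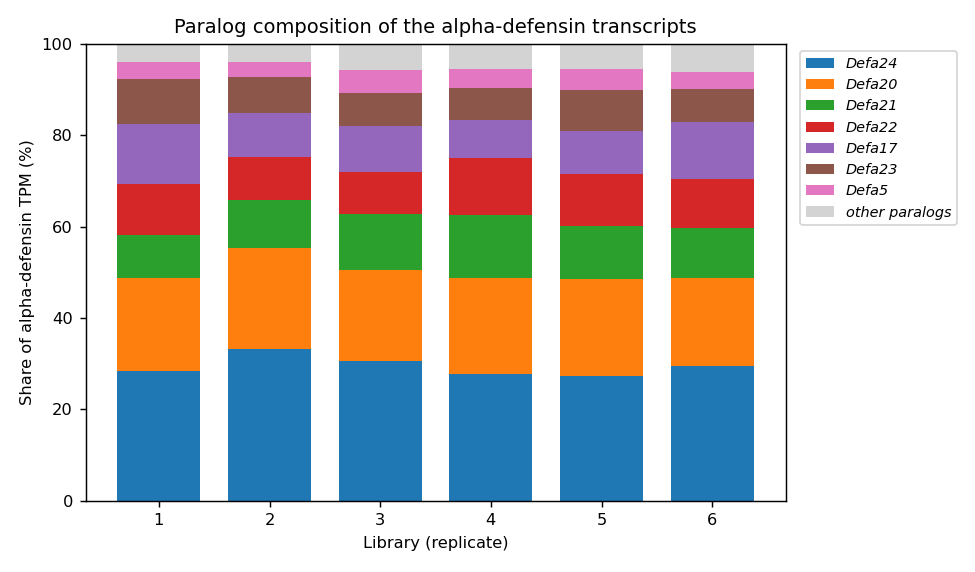
Share of the alpha-defensin TPM (percent, 0 to 100) held by the 7 most abundant paralogs and by the others, as stacked bars for each of the 6 libraries. Defa24 holds 27.3% to 33.2% and Defa20 19.4% to 22.2% in every library.

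The 6 leading paralogs fell into groups by coding sequence that the choice of members did not use. Coding identity was 95.7% between Defa24 and Defa17, 95.7% between Defa24 and Defa23 and 97.9% between Defa17 and Defa23. Defa21 and Defa22 were 99.3% identical, and Defa20 was 89.9% and 90.6% identical to them. Between Defa24, Defa17 and Defa23 on the one side and Defa20, Defa21 and Defa22 on the other, identity was 80.7% to 84.4%. The first 150 coding bases, which encode the signal peptide and much of the propeptide, had a median identity of 95.3% over the 15 pairs, against 71.0% in the rest, which holds the mature peptide shown above. Defa24, Defa17 and Defa23 held 48.0% ± 3.06 (SD, n = 6) of the pool and Defa20, Defa21 and Defa22 held 42.8% ± 2.45. The former group was ahead in 5 libraries and the latter in replicate 4, where the shares were 43.3% and 47.1%.

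The likeness of the paralogs limits how well their levels can be told apart. Reads were aligned with a seed of 25 bases and up to 1 mismatch, reads with more than 15 alignments were dropped, and the rest were divided between transcripts by estimated shares. Of the 25-base windows of the leading paralogs, 18.8% to 29.0% matched more than 15 reference transcripts with at most 1 mismatch. These were GENCODE M21 transcripts, not the UCSC mm10 transcriptome to which the authors aligned. Counting only transcripts of genes in the expression table, the share was 16.5% to 22.8%. Windows found in 1 gene only made up 2.78% of Defa24 and 0% of Defa20, Defa21, Defa22, Defa17 and Defa23. Reads are paired and longer than a seed, so these shares are no measure of the reads lost. By contrast, 100% of the windows of Mmp7, Clps, Guca2a, Guca2b, Pnliprp2 and Pla2g2a were found in 1 gene only. The share was 27.4% for Lyz1, 47.9% for Ang4 and 87.0% for Itln1, which also have near copies. The split among alpha-defensin paralogs is therefore uncertain.

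**Figure D3:**
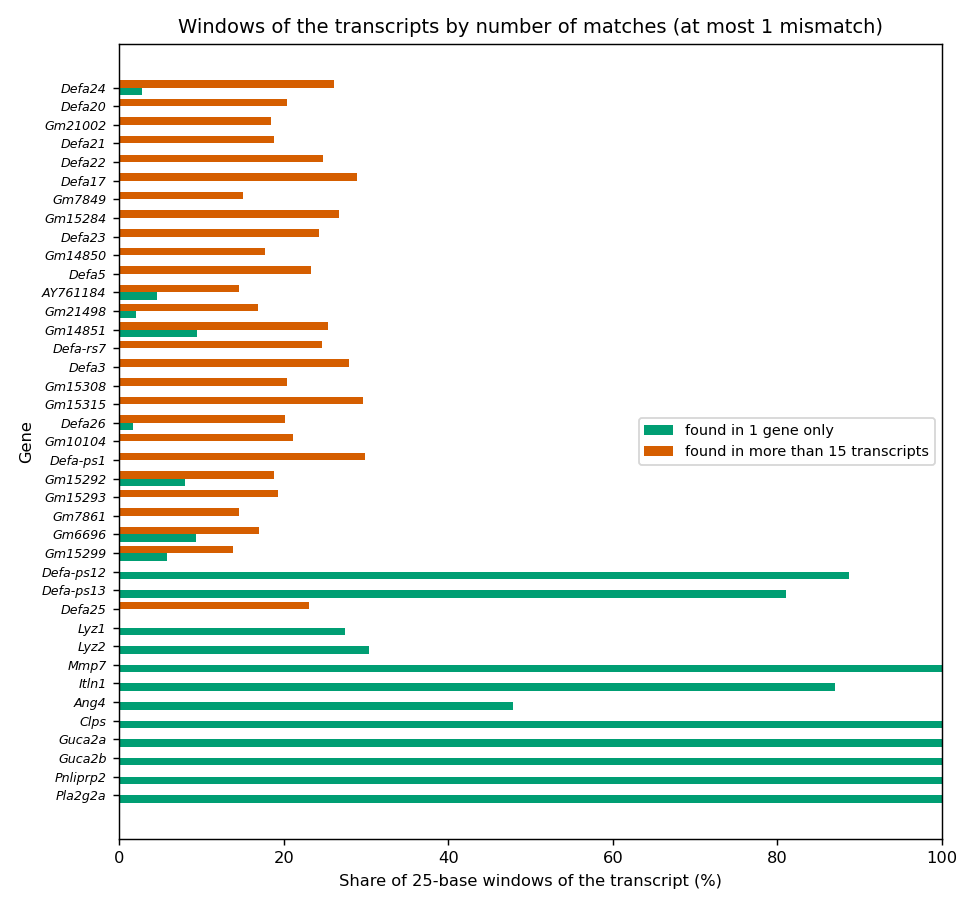
Share of the 25-base windows of each reference transcript (percent) found in 1 gene only (green) or in more than 15 transcripts (orange). Matches were counted over GENCODE M21 with at most 1 mismatch. The leading alpha-defensins have 18.8% to 29.0% of windows in more than 15 transcripts and at most 2.78% in 1 gene only, whereas Mmp7, Clps and the guanylins have 100% in 1 gene only.

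A further 15 genes that RefSeq names Defa were listed in the table under other symbols and are not members. They summed to 9030 ± 7445 TPM (SD, n = 6) and held 30.7% to 34.4% of the TPM of the whole family per library. The most abundant of them was Gm21002 (Defa33), at 620.22 to 7005 TPM, followed by Gm15284 (Defa30) at 370.98 to 3985 TPM and Gm7849 (Defa42) at 566.35 to 3611 TPM. With all 32 genes counted, the family held 2.71% ± 2.25 of all TPM, Defa24 held 19.7% and Defa20 13.8% of it, and Gm21002 came next in every library, with 9.50% on average, ahead of Defa21, Defa22, Defa17 and Defa23. The cluster on chromosome 8 of GRCm38, from 21025545 (the start of Defa21) to 21735471 (the end of Defa24), held 28 of the genes in the table.

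Of the leading paralogs, Defa24 and Defa17 had no promoter sequence in the reference used. The promoters of 3 of the others are shown to describe their sequence. They span 250 bases before to 50 after the annotated start (RefSeq, GRCm38.p6), 5′ to 3′ on the strand of the gene, with TATAAA and with CTTTGA or its reverse complement TCAAAG, the core of the motif of TCF/LEF factors, in capitals.
Defa20 (chr8:21509008-21509307, plus strand): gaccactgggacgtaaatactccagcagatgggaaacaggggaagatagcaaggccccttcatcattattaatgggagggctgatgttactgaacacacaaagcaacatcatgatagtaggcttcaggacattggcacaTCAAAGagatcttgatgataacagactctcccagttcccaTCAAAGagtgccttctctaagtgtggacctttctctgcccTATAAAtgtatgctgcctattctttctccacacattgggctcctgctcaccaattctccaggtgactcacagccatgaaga
Defa21 (chr8:21025295-21025594, plus strand): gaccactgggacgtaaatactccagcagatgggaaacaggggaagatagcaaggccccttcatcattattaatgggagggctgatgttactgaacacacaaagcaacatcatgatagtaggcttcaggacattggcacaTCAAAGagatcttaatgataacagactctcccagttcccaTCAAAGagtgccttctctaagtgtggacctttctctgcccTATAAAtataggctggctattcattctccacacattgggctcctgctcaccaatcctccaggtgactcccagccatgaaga
Defa23 (chr8:21054790-21055089, plus strand): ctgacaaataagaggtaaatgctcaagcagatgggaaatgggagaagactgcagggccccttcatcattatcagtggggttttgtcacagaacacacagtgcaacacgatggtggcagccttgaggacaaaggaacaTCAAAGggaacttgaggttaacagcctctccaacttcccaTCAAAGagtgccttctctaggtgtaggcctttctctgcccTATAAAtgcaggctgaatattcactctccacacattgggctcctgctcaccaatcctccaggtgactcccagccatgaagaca
The promoter of Defa22 (chr8:21162027-21162326, plus strand) was identical to that of Defa21 over all 300 bases, and the means of these 2 genes stood at 1.05 to 1. The promoter of Defa-rs7 (chr8:21191323-21191622, plus strand) was identical to that of Defa23, and Defa23 was listed at 3.32 to 9.88 times Defa-rs7 in each library. The identity covers these windows only. Windows of 25 bases found in 1 gene only made up 0% of the transcripts of Defa21, Defa22, Defa23 and Defa-rs7. Both ratios therefore rest on the estimated division of shared reads, and no relation of promoter to level can be read from them.

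Promoter sequences were found for 15 genes of the alpha-defensin family by all symbols, of which 5 were members. TATAAA, searched on both strands, was present in 14 of the 15, against 14.2% of all 27025 promoters of the same length. CTTTGA, searched on both strands, was present in 12 of the 15, against 16.2% of all promoters. CAGCTG, an E-box sequence that reads the same on both strands, was present in 1 of the 15, against 16.1% of all promoters. Because the paralogs arose by duplication and share sequence, these genes are not independent of each other. Of 7 promoters of the other products, 1 held TATAAA, 3 held CTTTGA and 2 held CAGCTG. A match describes the letters of the window and is not evidence of binding.

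Beta-defensins, which are made by many epithelia rather than by Paneth cells alone, were nearly absent from the table's values. Of 43 genes, 39 were listed at 0 in every library, against 7713 of all 23420 genes. Replicates 2 and 6 held Defb1, at 2.78 and 2.39 TPM. Replicates 1 and 6 held Defb37, at 6.51 and 0.81 TPM, and replicate 6 alone held Defb40, at 5.07 TPM. Defb6 was at 17.29, 5.54 and 5.95 TPM in replicates 1, 4 and 5. Each of the 4 was listed at 0 in at least 3 libraries. The summed beta-defensin TPM ranged from 0 in replicate 3 to 23.8 in replicate 1, against 5644 to 44650 TPM for the alpha-defensins. The genes at 0 were Defb2, Defb3, Defb4, Defb5, Defb7 to Defb15, Defb18 to Defb23, Defb25, Defb26, Defb28 to Defb30, Defb33 to Defb36, Defb38, Defb39, Defb41 to Defb43, Defb44-ps, Defb45 to Defb48 and Defb50.

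Lyz1, the Paneth cell lysozyme (chromosome 10 of GRCm38, 117287795 to 117292868, minus strand), was at 1253, 711.28, 530.23, 3494, 2265 and 966.90 TPM in replicates 1 to 6 (mean 1537 ± 1137, SD, n = 6). It was highest in replicates 4 and 5 and lowest in replicate 3. Lyz2, the lysozyme of macrophages and other myeloid cells, shares 86.6% of its coding sequence with Lyz1 and was at 9.06, 5.57, 4.33, 0.91, 0.92 and 4.16 TPM. Lyz1 exceeded Lyz2 in 6 of 6 libraries, by 8.16 ± 1.87 on the log2(TPM + 1) scale (two-sided exact permutation of signs at the smallest p that 6 libraries allow, adjusted p = 0.0625 over 2 comparisons). The difference did not pass the adjusted threshold of 0.05, which 6 libraries and 2 comparisons could have passed only with both at the smallest p.

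Itln1, an intelectin that binds microbial sugars, was at 399.07, 356.98, 294.56, 1134, 700.80 and 363.99 TPM (mean 541.57 ± 323.51). Ang4 was at 177.86, 16.83, 74.85, 418.10, 301.47 and 116.18 TPM (mean 184.22 ± 150.40), with its lowest value in replicate 2. Mmp7, the activating protease of the alpha-defensins, was at 69.72, 54.84, 30.75, 128.42, 82.23 and 62.31 TPM. All 3 were highest in replicate 4. The alpha-defensin TPM per TPM of Lyz1 was 7.93 to 14.2 and per TPM of Mmp7 103 to 348, and the highest library exceeded the lowest 7.91-fold for the alpha-defensins and 4.18-fold for Mmp7. Pla2g2a, a secreted phospholipase gene that RefSeq lists as a transcribed pseudogene in this strain's genome, was at 3.25 to 21.40 TPM. Clps, the cofactor of pancreatic lipase, was at 16.75 to 121.39 TPM, and the lipase-related Pnliprp2 at 0.30 to 36.78 TPM. Of 14 genes of pancreatic acinar cells, 10 were listed at 0 in every library, among them Pnlip and Prss2, and the list summed to 9.46 to 17.9 TPM.

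To describe which products followed each other, every gene with a mean of at least 1 TPM was set against Lyz1 across the 6 libraries (Pearson r of log2(TPM + 1), two-sided exact permutation over 720 pairings). Of 24 members tested, 10 had an r of at least 0.9, against 0.524% of all 12031 genes tested (63 genes). With r above 0 and an unadjusted exact p under 0.05 there were 15 of 24, against 1.84% of all genes (221 genes). After Benjamini-Hochberg adjustment over all genes, 0% were called, so no relation of a member to Lyz1 passed the threshold. The smallest adjusted p of any gene was 0.643 (exact permutation). With 6 libraries no exact p can fall below 0.00139, which limits the adjusted p. The adjusted p also depends on how many genes reach a low p. The median r was 0.879 over the members and -0.161 over all genes. Many members, though not all, are known from Paneth cells, and near-identical paralogs share reads, so the 24 relations are not independent of each other.

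Defa23 followed Lyz1 with r = 0.973 and Spearman rho = 0.943 (n = 6, exact permutation p = 0.00417 and 0.0167, adjusted p = 0.719 and 0.716). Itln1 had r = 0.966 and rho = 1 (exact permutation p = 0.00139 and 0.00278, adjusted p = 0.643 and 0.716). Mmp7 had r = 0.947 and rho = 1 (exact permutation p = 0.00278 for each, adjusted p = 0.696 and 0.716). Itln1 and Mmp7 thus put the 6 libraries in the same order as Lyz1 did. Defa24 had r = 0.952 and rho = 0.886 (exact permutation p = 0.00694 and 0.0333, adjusted p = 0.743 and 0.728). The remaining members at or above 0.9 were Defa20 (0.965), Defa22 (0.963), Defa17 (0.928), Defa21 (0.923), Defa5 (0.907) and Defa-ps1 (0.906), with rho of 0.886 for the first 5 and 1 for Defa-ps1 (unadjusted exact permutation p for r from 0.00556 to 0.0208). Without replicates 3 and 4, the 2 libraries farthest from the median of Lyz1, r was 0.971 for Defa23, 0.938 for Itln1, 0.993 for Mmp7 and 0.905 for Defa24. There r fell below 0.9 for Defa17 (0.857) and Defa21 (0.895), and stayed above it for Defa20, Defa22, Defa5 and Defa-ps1. Without replicate 4 alone, 5 of 24 members had an r of at least 0.9, against 143 of all 12031 genes. Spearman rho reached 0.9 in 5 of 24 members and 69 of all genes, and with Mmp7 in place of Lyz1 as the reference, r did in 3 of 24 members and 70 of all genes.

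Members just under 0.9 were Clps (0.889), Defa4 (0.880), Defa3 (0.878) and Defa26 (0.869). Without replicates 3 and 4, their r was 0.685, 0.723, 0.864 and 0.808. Ang4 had r = 0.822 and rho = 0.943 (n = 6, exact permutation p = 0.0389 and 0.0167, adjusted p = 0.762 and 0.716), and its value in replicate 2 set it apart: without that library, r was 0.995. Defa-rs7 had r = 0.811 and Defa6 had r = 0.806. The 14 alpha-defensins tested thus ranged from 0.806 to 0.973. The 6 leading paralogs followed each other more closely, with r of 0.954 to 0.998 over their 15 pairs, but reads shared between them enter these values. Another 25 pairs of genes were picked after values were seen and tested as well, with adjustment over these 25 alone, so a low p among them is no independent support. Mmp7 with Clps had r = 0.973 and rho = 0.886 (n = 6, exact permutation p = 0.00833 and 0.0333, adjusted p = 0.0608 and 0.139), and r was 0.710 without the 2 libraries farthest from the median of Mmp7. Under 0.05 after this adjustment were Defa20 with Defa24, which share reads, for r and rho (exact permutation, adjusted p = 0.0347 for each), and Lyz1 with Fabp2 for rho alone (exact permutation, adjusted p = 0.0347 for rho and 0.0521 for r).

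**Figure D4:**
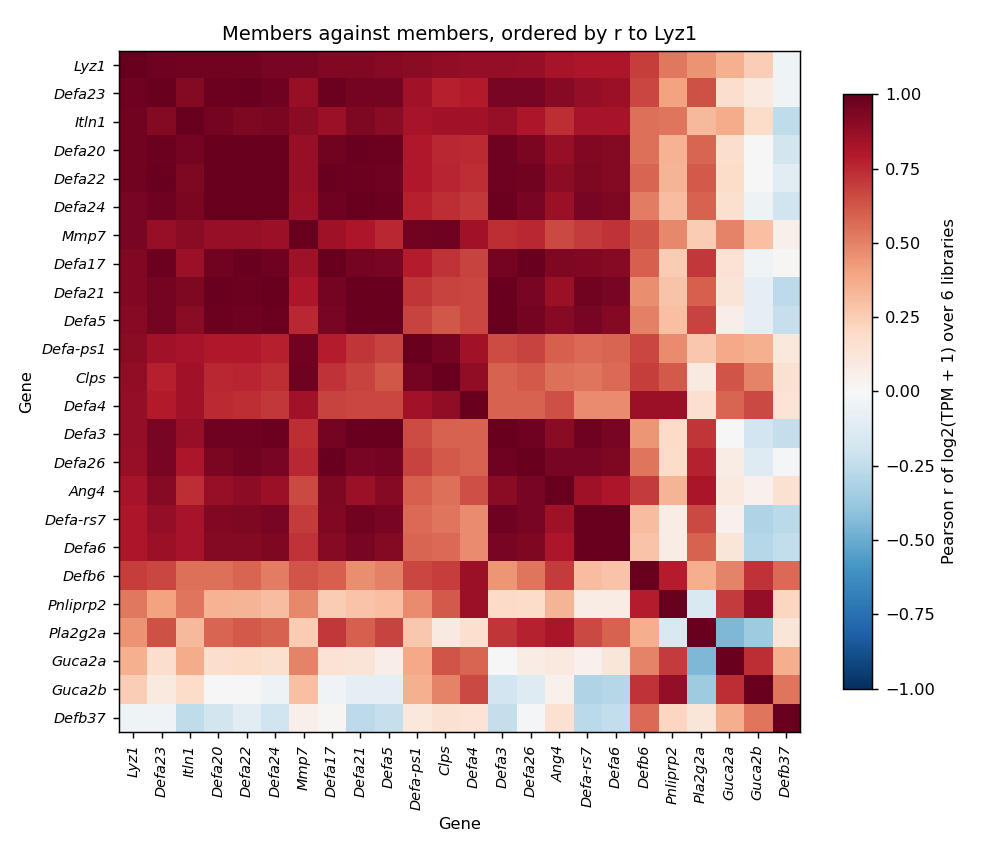
Pearson r of log2(TPM + 1) between members over the 6 libraries, from -1 (blue) to 1 (red), with genes in order of r to Lyz1. The leading alpha-defensins form a red block with r of 0.954 to 0.998, and Guca2a, Guca2b and Pnliprp2 have r of 0.699 to 0.880 with each other.

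The guanylins are small peptides that act on the guanylate cyclase receptor Gucy2c to drive salt and water secretion. Their r to Lyz1 was above 0 but lower than that of most members, a difference that was not tested. Guca2a was at 729.84, 591.77, 393.43, 791.82, 352.01 and 371.35 TPM in replicates 1 to 6, and its neighbor Guca2b, also on chromosome 4, at 1300, 714.07, 361.56, 602.46, 533.28 and 232.87 TPM. Guca2a was highest in replicate 4, as Lyz1 was. Guca2b was highest in replicate 1, where the summed alpha-defensins, at 10684 TPM, were below their median of 12192 TPM. Within libraries, Guca2b minus Guca2a was 0.09 ± 0.58 on the log2(TPM + 1) scale, and Guca2b was higher in 3 of 6 libraries (two-sided exact permutation of signs, p = 0.719, also after adjustment). The r to Lyz1 was 0.354 for Guca2a (rho = 0.257, n = 6, exact permutation p = 0.458 and 0.658, adjusted p = 0.935 and 0.960) and 0.244 for Guca2b (rho = 0.257, exact permutation p = 0.649 and 0.658, adjusted p = 0.970 and 0.960). Without replicates 3 and 4, r was -0.44 and 0.07. Pnliprp2 (0.530) and Pla2g2a (0.448) also lay below the other products.

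Among themselves, Guca2a, Guca2b and Pnliprp2 had r of 0.699 to 0.880, whereas their r to the 6 leading alpha-defensins was -0.10 to 0.40. Gucy2c was at 128.76 to 231.19 TPM, highest in replicate 1 as Guca2b was. After centering within replicates 1 to 3 and within replicates 4 to 6, r was higher for the guanylins. There, r to Lyz1 was 0.932 for Guca2b (exact permutation p = 0.0278 over 36 pairings, adjusted p = 0.776), 0.787 for Guca2a (exact permutation p = 0.167, adjusted p = 0.834) and 0.984 for Pnliprp2 (exact permutation p = 0.0278, adjusted p = 0.776). For the 6 leading alpha-defensins it was 0.850 to 0.954, for Itln1 0.935 and for Mmp7 0.903. Centering raised the count over all genes too, from 63 to 283 with r of at least 0.9. Pla2g2a turned to -0.05. The 2 sets also differed in Gm20594, whose part in these values was not tested.

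**Figure D5:**
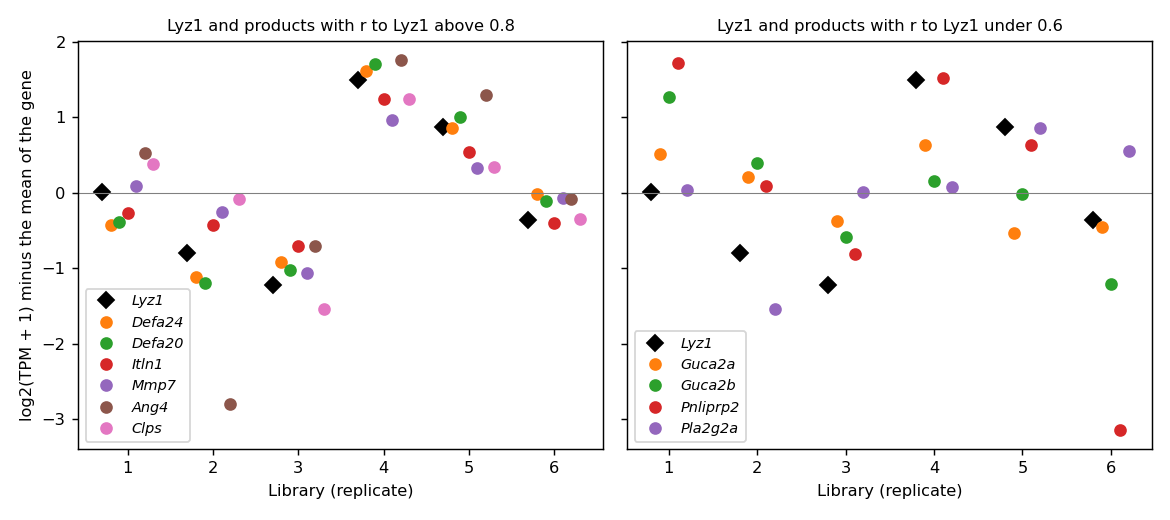
log2(TPM + 1) minus the mean of the gene over the 6 libraries, for Lyz1 (black) with products that had an r to Lyz1 above 0.8 (left) and under 0.6 (right). On the left the genes peak in replicate 4. On the right Guca2b and Pnliprp2 are highest in replicate 1, Guca2a in replicate 4 and Pla2g2a in replicate 5.

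Other Paneth cell genes varied in their relation to Lyz1. Of 30 such genes that are no members, 25 could be tested, and the median r was -0.13 with a highest value of 0.782. An r of at least 0.9 was found for 0 of the 25, against 0.524% of all genes, so this count does not set the list apart. Above 0 were 10 of the 25, against 4572 of all 12031 genes, and the 3 most abundant genes named next were not among the 10. The most abundant were Reg3g at 3325 to 22079 TPM and Reg3b at 1501 to 17046 TPM, antimicrobial lectins that enterocytes also make, and Cd24a, which tuft cells make as well, at 4291 to 9996 TPM. Reg3g and Reg3b were highest in replicate 3, where Lyz1 was lowest. Among the 10 genes with r above 0, the highest were Fgfrl1 (0.782), Habp2 (0.709) and Nupr1 (0.707), with means of 1.87, 3.48 and 29.5 TPM. Mptx2, at 7.51 to 291.78 TPM, had r = 0.420. At the other end were Ephb3 (-0.794), Lyz2 (-0.740) and Xbp1 (-0.696). Lyz2, named above as a lysozyme of myeloid cells, was thus counted in this list and in its median. Ang2, Ang5 and Ang6 were listed at 0 in every library. The alpha-defensins under other symbols had 7 of 15 at or above 0.9.

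Of the marker lists of other cells, enterocyte genes had 2 of 8 at or above 0.9, namely Fabp2 (0.965), at 228.65 to 1204 TPM, and Apoa1 (0.931), at 451.66 to 1444 TPM, and a median of 0.772. Fabp1 had r = -0.18. None of 12 tuft, 7 goblet, 8 enteroendocrine, 5 stem and 8 lymphocyte and myeloid genes tested reached 0.9, with medians of -0.05, 0.10, -0.01, -0.27 and 0.06. The same held for 4 guanylin pathway genes and for 2 acinar genes. Of 5 genes that handle or precede defensins, Mmp7 alone did. The summed goblet list was highest in replicate 6 and the summed enterocyte list in replicate 1, and their part in the values of the members was not tested.

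The 10 genes outside the member list with the highest r to Lyz1 were Zswim4 (0.996), Cdk17 (0.982), Tbrg3 (0.977), Ndufs4 (0.972), Nom1 (0.971), Palld (0.967), Fabp2 (0.965), Gm7849 (0.964), Csnk1g2 (0.962) and 1810037I17Rik (0.962), over 6 libraries. Only Gm7849 among them is an alpha-defensin. Cdk17 and Tbrg3 had means of 1.21 and 2.77 TPM.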

How the data were processed

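RNA from sorted ileal tuft cells was measured in 6 libraries of 1 group. The authors prepared libraries by a modified SMART-Seq2 protocol (the labels also name 3' polyA and droplet preparations), aligned paired-end reads with Bowtie to the UCSC mm10 transcriptome and deposited TPM values from RSEM. TPM keeps no depth, so no count model was used, and an exact 0 can be a failed estimate. TopHat and DESeq2 appear in the submitters' processing notes and were not used here. Gene annotation came from GENCODE M21 and RefSeq (GRCm38.p6, the assembly of mm10), in which 67 of 69 members were matched by symbol. Those not matched were Defa4 and Defa6. The values of 1 member are not reported here, though it is included in the counts and sums.

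Members and lists were chosen with earlier results of these data known. Full values are given for members with a mean of at least 100 TPM and ranges for others above 0. Of each list, up to 3 of the most abundant genes are named, and others where their r or a level of 0 is described. The 10 genes most like Lyz1 are named too. Relations used log2(TPM + 1) for 12032 genes that averaged 1 TPM or more, Lyz1 among them, with two-sided exact permutation tests and Benjamini-Hochberg adjustment over all genes. The study describes the libraries as independent samples. Coding sequences of GENCODE transcripts were compared in place of proteins. The calculation of r was tested on simulated data. Alternatives were pseudocounts of 0.1 and 0.01, other filters, rescaling without Rn45s and Gm20594 or by median-of-ratios factors, Spearman rho, centering within sets, Mmp7 as reference, a Mann-Whitney test and leaving out each library. Tests of 25 further pairs of genes, and counting the genes under other symbols, were chosen after seeing the data. Scripts ran in Python 3.11.15 with scipy 1.17.1, numpy 2.4.6, matplotlib 3.10.9 and pandas 2.3.3.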

Additional observations from a re-analysis of the deposited data

Results flagged for a closer look

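In 5 of 44 measures screened, 1 library stood far from the other 5 by Dixon's criterion. The criterion assumes continuous values, and the 3 beta-defensins below were at 0 in 3 to 5 libraries, so the 2.2 flags that chance gives among 44 continuous measures is no yardstick for them. Replicate 4 was far above the rest for Defa-rs7, at 936.35 TPM against 333.55 in the next library. The same held for Defa6, at 61.93 TPM against 24.04, a gene not matched to the annotation used here. Replicate 1 was far above for Defb37, at 6.51 TPM against 0.81, and for Defb6, at 17.29 TPM against 5.95. Replicate 6 was the only library above 0 for Defb40, at 5.07 TPM. The leading alpha-defensins were also highest in replicate 4.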

How the results depend on the processing

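All r and counts below are for the relation to Lyz1. Of 311 alternative values of r over 24 members, 304 kept their sign. Defb37 turned from -0.04 to 0.0338 by Spearman rho, 0.281 after centering within the sets and 0.0531 with Mmp7 as the reference, and Pla2g2a from 0.448 to -0.0454 after centering. Leaving out each library in turn moved Defb37 between -0.25 and 0.21 and Guca2a between -0.13 and 0.72. The count of genes with r of at least 0.9 was 63, and became 98 without Rn45s and Gm20594, 122 with median-of-ratios factors, 283 after centering, 97 with no filter on the mean, 69 by Spearman rho, 70 with Mmp7 as the reference and 139 to 186 without 1 library, where 5 values make a high r easier. The count of members was 10, and became 5 by Spearman rho, 3 with Mmp7 and 5 to 14 without 1 library. Counting all symbols lowered the share of Defa24 from 29.4% to 19.7% and of Defa20 from 20.7% to 13.8%, because the pool is larger. Leaving out each library moved Guca2b minus Guca2a between -0.0635 and 0.237, with a negative value without replicate 1 or 5, and Lyz1 minus Lyz2 between 7.62 and 8.46, where 5 libraries cannot pass 0.05. Rescaling without Rn45s and Gm20594 raised the median gene 1.33- to 1.61-fold per library. The share of all TPM held by the alpha-defensins was 1.81% ± 1.51 (SD, n = 6). It became 2.71% without Rn45s and Gm20594 and 1.88% with median-of-ratios factors. When a library was left out it lay between 1.28% and 2.06%. These changes were smaller than the SD, but the SD is wide. Leaving out 1 of 6 libraries cannot move a mean by that much, so that comparison could not fail. The causes of the other changes were not tested. No paired analysis was possible because there was 1 group, so no groups share replicate numbers, and the 2 comparisons of genes within libraries are paired by library in themselves.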

Other observations

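Beyond the member list, 2 more pairs of alpha-defensin genes had identical 300-base promoters. Gm21498 and Gm14850 had means of 772.44 and 745.36 TPM, and their ratio varied from 0.136 to 1.75 between libraries. Gm7849 had a mean of 1569 TPM and Gm7861 of 8.37 TPM, with Gm7861 listed at 0 in 4 libraries and Gm7849 81.2 times as abundant in the library where they were closest. Windows found in 1 gene only made up 2.02% of Gm21498 and 0% of Gm14850, Gm7849 and Gm7861. These ratios too rest on the estimated division of shared reads.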
